A study of Mus musculus with 8 samples.

Results

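The interferon regulatory factors were measured in mouse dendritic cells before and after lipopolysaccharide (LPS), the outer membrane component of Gram-negative bacteria that is sensed by Toll-like receptor 4. The 8 genes Irf1, Irf2, Irf3, Irf4, Irf5, Irf7, Irf8 and Irf9 were taken by name, as every probe whose RefSeq transcript mapped to one of these symbols. This gave 9 of the 55681 probes and 8 of the 20884 named genes on the array. Irf1 had 2 probes and each of the other genes 1. Both groups came from bone marrow of female C57BL/6 mice, and no gene deletion or transgene is named for either. The immature group was grown for 6 days in IL-4 and GM-CSF, the latter at 10 ng/ml, and harvested on day 6. Mature cells were immature cells given LPS at 50 ng/ml overnight and collected on day 7. There were 4 samples per group, each on its own one-colour array. No cells kept to day 7 without LPS were analysed here, so LPS and the further night in culture cannot be told apart. The labels do not say whether the replicates were separate animals or cultures, so p-values measure the spread between these samples, which may be technical.

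Interferon regulatory factors share an amino-terminal DNA-binding domain that reads the GAAA repeats of interferon-stimulated response elements. IRF3 and IRF7 are latent proteins that are phosphorylated after pathogen sensing and then switch on type I interferon genes, and IRF5 acts with MyD88 on inflammatory cytokine genes. IRF9 joins STAT2 in the complex ISGF3, through which secreted interferon acts on its target genes. IRF1 is an interferon-induced activator and IRF2 its antagonist at shared sites. IRF4 and IRF8 are restricted largely to immune cells, bind DNA weakly alone, and join partners such as PU.1. Both are known as factors of dendritic cell development.

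After LPS, 4 of the 8 genes rose and none passed the test downward in limma (0 fell at an unadjusted p under 0.05 too). Irf7 rose by 6.33 log2 (80.6-fold), Irf8 by 2.09 (4.25-fold), Irf9 by 1.31 (2.49-fold) and Irf1 by 0.87 (1.83-fold). Irf3, Irf4, Irf2 and Irf5 did not pass, with log2 fold changes of 0.088, −0.088, −0.13 and −0.29. Levels are log2 processed signals relative to the 75th percentile of the array, and a gene was called at a Benjamini-Hochberg adjusted p under 0.05 in limma's moderated test over 12706 genes. Of all tested genes 56.1% were called, 31.4% rose and 24.7% fell, and 49.7% of 25940 tested probes were called, so the number of the 8 genes called in either direction was near that of the whole array. The groups did not overlap for 4 of the 8 genes, against 52.4% of all tested genes. The size of the changes set Irf7 apart in rank: 8 tested genes, itself included, had a log2 fold change as high. The median absolute log2 fold change was 0.58 over the 8 genes and 0.39 over all genes.

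**Figure D1:**
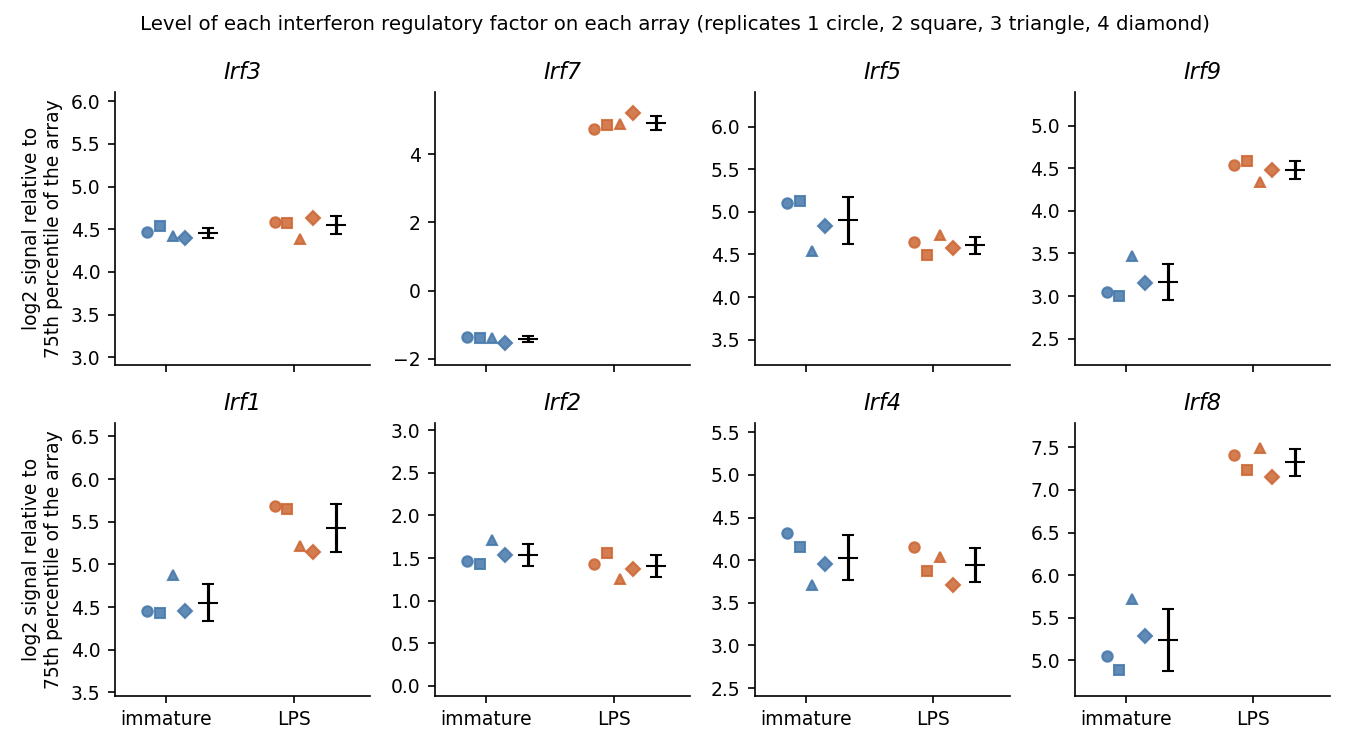
Log2 signal relative to the 75th percentile of the array (vertical axis) for each interferon regulatory factor on the 4 immature and 4 LPS arrays, with 1 symbol per replicate number, bars showing mean ± SD, and panels that start at different levels and cover equally many log2 units except for the wider one of Irf7. Irf7, Irf8, Irf9 and Irf1 have LPS arrays wholly above the immature arrays, and the other panels overlap.

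The members' starts are shown because the family's own recognition letters can be looked for there. RefSeq windows (build GRCm38.p6) reaching from 250 bases before to 50 bases after an annotated start were found for all 8 genes, 11 windows in all. They were searched on both strands for the interferon response element core (GAAA, any 2 bases, GAAA), the gamma-activated sequence TTCNNNGAA that STAT dimers bind, the Ets-IRF composite element (GGAA, any 2 bases, GAAA), and the kB motif of NF-kB. Of 32851 such windows over all genes, 3.44% held the interferon response element core, 8.30% the gamma-activated sequence, 2.72% the composite element and 4.51% the kB motif. The 250 bases before the start are printed 5′ to 3′ for the genes with a match and for Irf7, whose change was the largest, with matched letters in capitals.
Irf1 (chr11:53769764-53770013, plus strand): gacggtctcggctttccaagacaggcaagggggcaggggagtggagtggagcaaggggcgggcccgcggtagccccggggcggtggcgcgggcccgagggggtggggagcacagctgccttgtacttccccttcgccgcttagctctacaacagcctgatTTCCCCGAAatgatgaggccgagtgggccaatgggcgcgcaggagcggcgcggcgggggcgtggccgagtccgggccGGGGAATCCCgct
Irf2 (chr8:46739495-46739744, plus strand): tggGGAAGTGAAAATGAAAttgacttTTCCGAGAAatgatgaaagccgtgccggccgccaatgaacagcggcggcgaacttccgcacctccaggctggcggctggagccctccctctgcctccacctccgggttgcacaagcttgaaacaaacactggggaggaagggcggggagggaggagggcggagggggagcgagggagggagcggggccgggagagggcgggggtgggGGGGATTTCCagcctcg
Irf8 (chr8:120736108-120736357, plus strand): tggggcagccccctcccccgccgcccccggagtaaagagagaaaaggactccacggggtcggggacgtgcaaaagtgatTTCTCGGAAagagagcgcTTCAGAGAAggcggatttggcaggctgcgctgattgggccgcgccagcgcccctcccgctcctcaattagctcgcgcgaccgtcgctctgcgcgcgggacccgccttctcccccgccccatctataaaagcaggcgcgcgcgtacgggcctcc
Irf7 (chr7:141266425-141266674, minus strand): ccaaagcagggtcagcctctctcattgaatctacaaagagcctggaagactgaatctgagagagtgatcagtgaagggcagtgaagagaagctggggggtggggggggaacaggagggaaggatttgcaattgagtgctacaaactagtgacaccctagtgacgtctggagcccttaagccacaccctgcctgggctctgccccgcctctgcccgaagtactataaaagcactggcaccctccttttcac
In the Irf1 window a gamma-activated sequence began 90 bases and a kB motif 13 bases before the start, the latter reading on both strands. The Irf2 window held all 4 motifs, with the composite element beginning 247 and the interferon response element core 241 bases before the start, so that these 2 matches overlap. Its gamma-activated sequence began 224 and its kB motif 17 bases before the start. The Irf8 window held 2 gamma-activated sequences, beginning 171 and 153 bases before the start. None of the 4 motifs was found in the Irf7, Irf3, Irf4, Irf5 or Irf9 windows, or in the second windows of Irf1 and Irf8, which says only that these letters are not in these windows. A match is a description of the letters and not a measured site, and no link between these motifs and the changes was tested.

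All 8 arrays lay on 1 slide, per the file headers, row 1 carrying the immature and row 2 the LPS group, so row and treatment cannot be told apart. Between 47.5% and 51.3% of the spots outside the controls were well above background. No such spot was saturated. The 75th percentile of the signal had a mean of 469 ± 18.5 (SD, n = 4) before and 406 ± 13.4 after LPS (two-sided exact permutation p = 0.0286, which is as low as 4 against 4 can go), a difference the scaling removes. The slope of the line fitted to the spike-in controls also differed, with 0.947 ± 0.0074 before and 0.973 ± 0.0092 after LPS (exact permutation p = 0.0286). Subtracting a percentile does not remove a difference in slope, and its part in the changes was not tested. Immature replicate 3 stood apart: over tested genes its differences from the other immature arrays had a scaled median absolute deviation of 0.288 to 0.438 log2, against 0.118 to 0.250 among the others and 0.139 to 0.249 among LPS arrays. In each group the lowest value, 0.118 and 0.139, was that of replicates 1 and 2. Whether these 2 replicates share a source is not said by the labels and was not tested. The labelled cell type was checked on 6 dendritic cell markers, all well above background on all 8 arrays. Before LPS, Flt3 and Zbtb46 lay below the 75th percentile of the array (means −1.72 and −1.76 log2). Summed signals before LPS were 938 to 1015 for these 6 markers, 738 to 874 for 7 neutrophil markers and 327 to 384 for 5 macrophage markers. S100a8 and S100a9 (means 7.94 and 8.60 log2) made up most of the neutrophil sum, and Csf1r (8.14) most of the macrophage sum. The check therefore cannot show that the samples held dendritic cells alone. Flt3 and Zbtb46 rose (2.65 and 0.71 log2), Itgax, H2-Aa and Cd74 fell (−0.99, −0.75 and −0.46), and H2-Ab1 did not pass (0.015).

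Irf7, the amplifier of type I interferon production, had log2 levels of −1.35, −1.40, −1.38 and −1.55 in immature replicates 1 to 4. After LPS its levels were 4.73, 4.84, 4.88 and 5.20. The lowest LPS array lay 6.08 log2 above the highest immature array, and the 4 values within each group were close to each other (SD 0.088 and 0.20). In unscaled processed signal the gene went from between 154 and 193 to between 10980 and 15439. The immature signal was dim but well above background on all 4 arrays, so the change is measured on both sides and is no lower bound. The increase was 6.33 ± 0.11 log2 (n = 4 in each group, SE; adjusted p from limma = 2.55e-08; 95% interval 6.08 to 6.58). Over 17 other processing settings it stayed between 5.88 and 6.39.

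Irf3, the factor through which TLR4 and its adaptor TRIF first reach the interferon-beta gene, had levels of 4.46, 4.54, 4.41 and 4.40 in the immature cells. It had 4.58, 4.57, 4.39 and 4.63 after LPS. The groups overlapped, and this gene had the smallest SD of the family in the immature cells (0.063). Its log2 fold change of 0.088 ± 0.078 did not pass (limma adjusted p = 0.360), and the 95% interval ran from −0.090 to 0.27. The sign turned to −0.086 with scaling to the array median and to −0.12 with no scaling. IRF3 is known to be controlled by phosphorylation, which these arrays do not measure.

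Irf5, which drives Il6 and Il12 family genes in myeloid cells, had immature levels of 5.11, 5.12, 4.54 and 4.84. The LPS levels were 4.64, 4.49, 4.72 and 4.58. Immature replicates 1, 2 and 4 lay above all LPS arrays, and replicate 3 lay among them. The log2 fold change was −0.29 ± 0.14 (limma adjusted p = 0.0983; 95% interval −0.61 to 0.019). It passed in 6 of the 17 other settings, among them without immature replicate 3 (−0.41, limma adjusted p = 0.00806), with quantile normalization (−0.37, adjusted p = 0.0363) and with no scaling (−0.50, adjusted p = 0.0229). The direction was downward in all 17.

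Irf9, the DNA-binding subunit of ISGF3, had immature levels of 3.05, 3.01, 3.47 and 3.15 and LPS levels of 4.54, 4.58, 4.34 and 4.47. The lowest LPS array lay 0.87 log2 above the highest immature array, which was replicate 3. The increase was 1.31 ± 0.12 (SE; limma adjusted p = 4.26e-05), with a 95% interval of 1.05 to 1.58. Its partner gene Stat2 rose with it, by 1.74 ± 0.17 (limma adjusted p = 8.28e-05). Both genes had LPS arrays wholly above the immature arrays.

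Irf1, the activator of MHC class I processing and inflammatory genes, had immature levels of 4.45, 4.43, 4.87 and 4.45. After LPS the levels were 5.69, 5.65, 5.21 and 5.15. Immature replicates 1, 2 and 4 lay close together while replicate 3 was higher, and LPS replicates 1 and 2 lay above replicates 3 and 4. The groups were separated by 0.27 log2, the smallest gap among the genes that rose. The increase was 0.87 ± 0.16 (SE; limma adjusted p = 0.00209; 95% interval 0.50 to 1.24). The second Irf1 probe, for the transcript NM_001159393, was not well above background on any of the 8 arrays and gave no level. Averaging it with the first lowered the change to 0.61, which still passed (limma adjusted p = 0.0432).

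Irf2, which binds the same sites as IRF1 and mostly represses, had immature levels of 1.46, 1.44, 1.71 and 1.53 and LPS levels of 1.43, 1.56, 1.26 and 1.38. The groups overlapped. The log2 fold change of −0.13 ± 0.095 did not pass (limma adjusted p = 0.278; 95% interval −0.35 to 0.089). It passed with scaling to the array median (−0.30, limma adjusted p = 0.0289) and with no scaling (−0.34, adjusted p = 0.0185), 2 of the 17 other settings. In unscaled processed signal all 4 LPS arrays (939 to 1175) lay below all 4 immature arrays (1292 to 1502). Whether Irf2 fell therefore turns on how the arrays are made comparable.

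Irf8, a factor of monocyte and dendritic cell lineages, had immature levels of 5.05, 4.88, 5.72 and 5.29. After LPS the levels were 7.41, 7.23, 7.49 and 7.16. Replicate 3 was the highest immature array, and the lowest LPS array lay 1.44 log2 above it. The increase was 2.09 ± 0.18 (SE; limma adjusted p = 3.58e-05; 95% interval 1.68 to 2.49). Replicates spread more before LPS (SD 0.36, or 0.20 without replicate 3) than after it (SD 0.15). In unscaled processed signal the LPS arrays reached 59691 to 70631.

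Irf4, which Irf8 resembles in sequence and which supports the dendritic cells grown with GM-CSF and IL-4, had immature levels of 4.31, 4.15, 3.71 and 3.95. The LPS levels were 4.16, 3.87, 4.03 and 3.71, across the same range. The log2 fold change was −0.088 ± 0.15 (limma adjusted p = 0.643), with a 95% interval of −0.43 to 0.26. Without immature replicate 1 it was 0.0062. Irf4 thus did not pass in either direction while Irf8 rose in the same RNA.

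**Figure D2:**
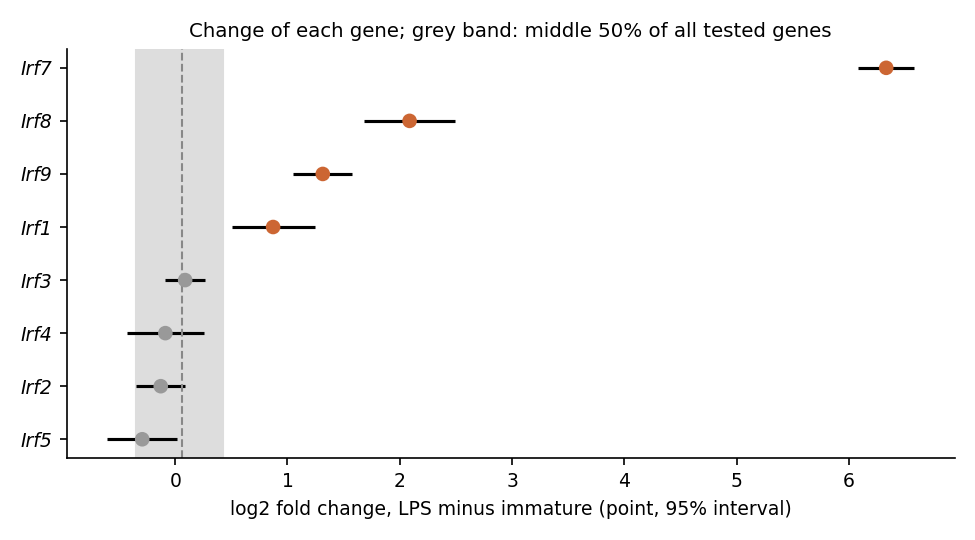
Log2 fold change (LPS minus immature, horizontal axis) of the 8 genes with its 95% interval from limma; orange points passed the test and grey points did not. The dashed line is the median of all tested genes (0.057) and the grey band their middle 50%, which holds the points of Irf3, Irf4, Irf2 and Irf5 and lies below those of Irf1, Irf9, Irf8 and Irf7.

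Differences between 2 members within each array do not change when a constant is subtracted from the array, as in all scalings here but quantile normalization, which was not run on them. They were compared over 11 pairs with exact two-sided permutation tests adjusted by the Benjamini-Hochberg method. A pair whose groups do not overlap reaches the smallest p that 4 against 4 arrays allow, 0.0286, or 0.0393 after adjustment. The adjustment took in neighbours in the order of change, which were picked from these same fold changes, so the adjusted value depends in part on that choice. The difference between Irf4 and Irf8 ranged from −2.01 to −0.73 log2 before LPS and from −3.46 to −3.26 after it. It moved by −2.18 ± 0.31 log2 (SE), a 4.52-fold shift toward Irf8. Its SD was 0.092 after LPS and 0.61 before, where the value of −2.01 came from immature replicate 3, the array that stood apart. Irf1, already 3.02 log2 above Irf2 in mean signal before LPS, gained 1.00 ± 0.11 over it. This is a shift in RNA signal, and protein or activity was not measured. Irf7 gained 6.24 ± 0.11 over Irf3, and the level of Irf9 relative to Irf7 moved by −5.02 ± 0.17. Each of these 4 comparisons had groups that did not overlap (exact permutation p = 0.0286, adjusted p = 0.0393).

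The 7 other pairs were neighbours in the order of change. That order was taken from the same fold changes, which fixes the sign of each difference, so they are given as a description with no test. Irf7 exceeded Irf8 by 4.25 ± 0.25 log2 (SE), Irf8 exceeded Irf9 by 0.77 ± 0.14, Irf9 exceeded Irf1 by 0.44 ± 0.11, and Irf1 exceeded Irf3 by 0.78 ± 0.18. Within-array differences of these 4 pairs did not overlap between the groups. Those of the remaining pairs did, and their order was not resolved: Irf3 and Irf4 differed by 0.18 ± 0.17, Irf4 and Irf2 by 0.041 ± 0.23 and Irf2 and Irf5 by 0.16 ± 0.23. For the pairs chosen by role, 1 array left out gave values but no test, since the exact test then cannot fall below 0.0571. The Irf4 and Irf8 shift ranged from −2.44 to −2.02, that of Irf1 and Irf2 from 0.92 to 1.08, that of Irf7 and Irf3 from 6.18 to 6.32, and that of Irf9 and Irf7 from −5.10 to −4.92.

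Immature replicate 3 was the highest immature array for Irf1, Irf2, Irf8 and Irf9 and the lowest for Irf4 and Irf5. It lay 0.64 log2 above the mean of the other immature arrays for Irf8, 0.43 above for Irf1 and 0.40 above for Irf9. For Irf5 it lay at −0.48 and for Irf4 at −0.43 from that mean. Irf7 lay at 0.049 from the mean of the others. The summed signal of the IRF4 and IRF8 target list was lower in this array (759 times the array's percentile) than in the other immature arrays (908 to 953), and that of the IRF5 target list was higher (22.7 against 14.9 to 17.2). Ccl17 and Cst3 (means 8.55 and 8.41 log2 before LPS) made up most of the IRF4 and IRF8 sum, so it says little about the other genes of that list. The sum over 24 targets of ISGF3 and of IRF3 or IRF7 (198) was within the range of the others (180 to 208). Over tested genes, immature replicate 3 also lay closer to the LPS arrays than the other immature arrays did. The scaled median absolute deviation of its differences from them was 0.536 to 0.548 log2, against 0.581 to 0.681 for the others. Summed marker signals of some cell types also set replicate 3 apart. Those of monocytes (53.7 against 29.5 to 43.2), macrophages (384 against 327 to 348) and plasmacytoid dendritic cells (126 against 111 to 117) were higher than in the other immature arrays. Those of dendritic cells (938 against 967 to 1015), type 1 conventional dendritic cells (61.8 against 77.0 to 88.4) and T cells (0.987 against 1.14 to 1.35) were lower. Those of neutrophils, B cells and natural killer cells lay within the range of the others. The type 1 sum was mostly Wdfy4, the plasmacytoid sum mostly Siglech, the macrophage sum mostly Csf1r and the neutrophil sum mostly S100a8 and S100a9. The part of these cell types in the values was not tested. Without this array Irf7 changed by 6.34, Irf8 by 2.25, Irf9 by 1.41 and Irf1 by 0.98, each still called.

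**Figure D3:**
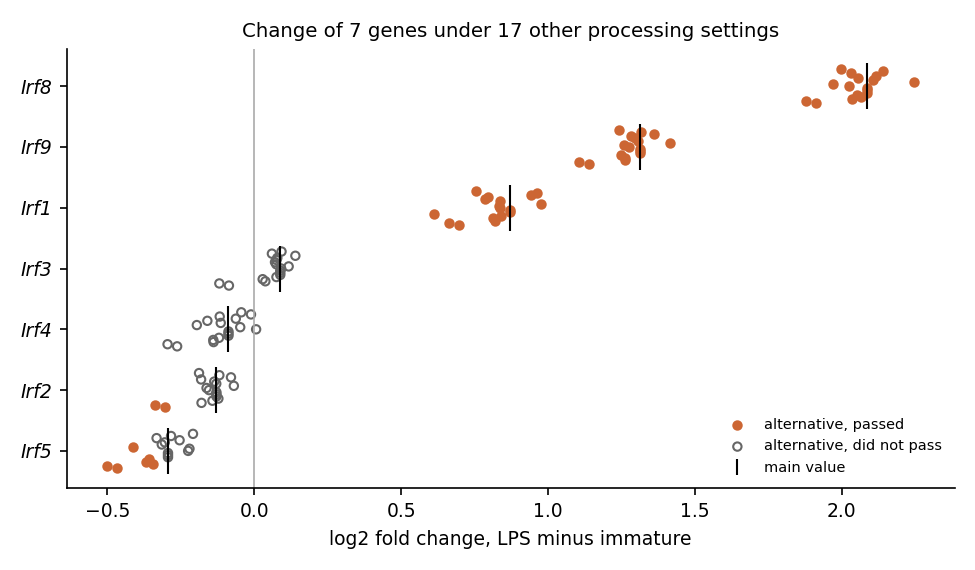
Log2 fold change (horizontal axis) of the 7 genes other than Irf7 under 17 other processing settings, with filled points where the gene passed, open points where it did not, and a vertical bar at the main value. Irf8, Irf9 and Irf1 passed in all 17, Irf5 passed in 6 and Irf2 in 2, each time downward, and Irf3 and Irf4 passed in none.

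Genes around the family were described from lists chosen with earlier results of these data known, so their counts are no independent evidence. In the route to IRF3, IRF5 and IRF7, 13 rose among 24 tested, 6 fell and the other 5 did not pass, with a median log2 fold change of 0.54 against 0.057 over all genes. The LPS coreceptor gene Cd14 rose by 2.54 ± 0.21 and Ifih1, encoding the RNA sensor MDA5, by 2.15 ± 0.11. Tbkbp1, an adaptor of the kinase TBK1, fell by 1.12 ± 0.092 on its brightest probe. Its 2 other probes gave −1.05, which passed, and −0.46, which did not (limma over probes, adjusted p = 0.000221 and 0.0616). The kinases that phosphorylate IRF3 and IRF7, named here after their values were seen, rose less: Tbk1 by 0.76 ± 0.11 (limma adjusted p = 0.000510) and Ikbke by 0.92 ± 0.14 (adjusted p = 0.000717).

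Of the DNA-binding partners and cofactors, 8 rose among 19 tested, 4 fell and 7 did not pass (median 0.14). Besides Stat2, described with Irf9, Ikzf1, encoding the lymphoid and myeloid factor Ikaros, fell by 1.42 ± 0.13. Its dimmer probe gave −0.39 and did not pass (limma over probes, adjusted p = 0.154). Spi1, encoding the IRF4 and IRF8 partner PU.1, was named after its value was seen and fell by 0.88 ± 0.17 (limma adjusted p = 0.00282). The 3 genes of IRF2-binding proteins, Irf2bp1, Irf2bp2 and Irf2bpl, did not pass (−0.13, −0.17 and 0.44). With no scaling the falling genes of this list numbered 7.

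Of the interferons, their receptors and receptor kinases, 11 rose among 18 tested, 2 fell and 5 did not pass (median 0.48), and 7 rose with no scaling. Ifnb1, the interferon-beta gene, was not well above background on any immature array and was at least 3.20-fold higher after LPS, a bound that sets each dim value no lower than the dimmest probe detected on that array. The bound holds for the main setting: the fitted log2 change, 2.67, was as low as 0.64 with normexp background correction. Socs3, a feedback inhibitor of cytokine receptors, rose by 2.17 ± 0.32. Ifnl3 fell by 0.62 ± 0.11 on its brighter probe, but the direction turned to 0.60 when its probes were averaged, and a near-identical copy, Ifnl2, makes its signal uncertain. The interferon-alpha genes, near-identical copies whose signals are uncertain, were dim. Ifna1 (0.32 ± 0.12, limma adjusted p = 0.0505) and Ifnab (0.075 ± 0.14) were well above background on all 8 arrays and Ifna14 (0.088 ± 0.14) on 4 immature and 3 LPS arrays, and none of these passed. Ifna5 was well above background on 3 arrays of each group, and Ifna4, Ifna11 and Ifna13 on no array.

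All 24 tested target genes of ISGF3 and of IRF3 or IRF7 rose, with a median of 3.11 log2. Ifi44 rose by 5.58 ± 0.28 and Oasl1, an oligoadenylate synthetase-like inhibitor of Irf7 translation, by 5.47 ± 0.11. The summed signal of the list went from between 180 and 208 to between 1332 and 1575 times the percentile. Of 15 tested IRF1 target genes 14 rose and 1 did not pass (median 1.17), led by Nos2, the inducible nitric oxide synthase (5.47 ± 0.73), and Il12a, which was not well above background on any immature array and was at least 5.19-fold higher in the main setting (fitted log2 change 4.57, and 1.32 with normexp). Of 4 tested IRF5 target genes 3 rose and 1, Tnf, did not pass. Il6 rose by 5.59 ± 0.28 and Il1b by 4.69 ± 0.31, and the list's median was 4.63, or 3.53 with Il12a at its bound. Without immature replicate 3, 1 gene of this list also fell.

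Of 11 IRF4 and IRF8 target genes 6 rose, 2 fell and 3 did not pass (median 0.39). The rising count was 3 with no scaling and 3 with scaling to the array median. Ccr7, the receptor that guides dendritic cells along lymphatics, rose by 2.12 ± 0.18 and the chemokine gene Ccl22 by 2.09 ± 0.19. Klf4, a factor of monocyte differentiation, fell by 1.42 ± 0.33. Genes on this shared list moved in both directions, as did all tested genes (31.4% rose and 24.7% fell). Of the list's 2 factors, Irf8 rose and Irf4 did not pass.

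**Figure D4:**
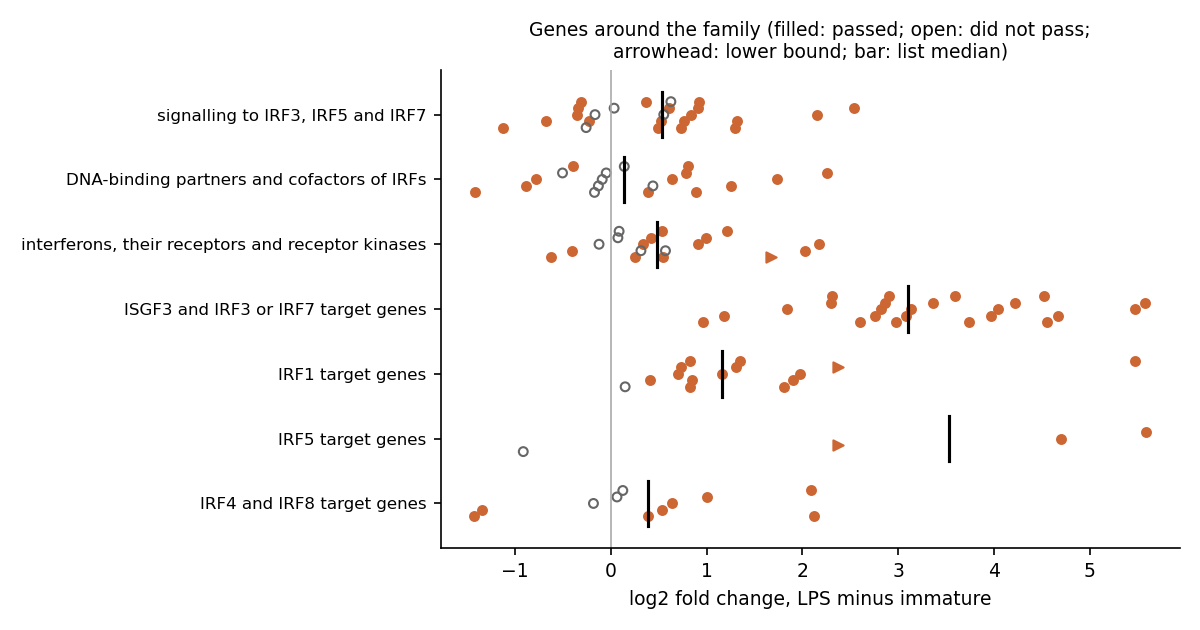
Log2 fold change (LPS minus immature, horizontal axis) of tested genes in 7 lists around the family, with filled points for genes that passed, open points for those that did not, arrowheads for lower bounds and a bar at the list median, bounds included. All 24 points of the ISGF3 and IRF3 or IRF7 target list lie above 0, while the lists of partners and of IRF4 and IRF8 targets spread to both sides of 0.

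Markers of other cells moved with the treatment in these bulk samples, where fewer cells of a type and less RNA per cell cannot be told apart. All 7 tested neutrophil markers and all 3 monocyte markers fell. The summed neutrophil signal went from between 738 and 874 to between 248 and 453 times the percentile, and the monocyte signal from between 29.5 and 53.7 to between 2.79 and 4.61. Most of the neutrophil sum was S100a8 and S100a9, whose log2 fold changes were −1.38 and −0.80. The part of these cell types in the changes of the family was not tested. Of 5 plasmacytoid dendritic cell markers, a type known for high Irf7 and Irf8, none passed in limma (1 had an unadjusted p under 0.05), with summed signals of 111 to 126 before and 127 to 139 after LPS. Of the markers of type 1 conventional dendritic cells, which need Irf8, Xcr1 was not well above background on any array, Wdfy4 fell by 1.93 ± 0.11 and Clec9a rose by 0.74 ± 0.26 (limma adjusted p = 0.0366). The B cell genes Pax5 and Ebf1, of a lineage that also uses Irf4 and Irf8, were not well above background on any array, and the 2 other B cell genes tested did not pass (0 in limma, and 0 at an unadjusted p under 0.05). Of 4 natural killer cell markers Ncr1 and Eomes were not well above background on any array, and both tested markers fell: Prf1 by 0.45 ± 0.097, and Klrb1c, which was well above background on 4 immature and 0 LPS arrays. Of 3 tested T cell markers 1 rose, 1 fell and 1 did not pass, and of 5 macrophage markers 1 rose, 1 fell and 3 did not pass.

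Genes with the most similar profile were sought among 11939 genes well above background on all 8 arrays, by the root mean square difference of mean-centred log2 levels. This distance takes in the size of the change as well as the pattern over replicates, and shared regulation was not tested. For Irf7 the nearest were the acute-phase genes Saa1 (0.402) and Saa3 (0.415), far from it compared with the other members' neighbours. Few tested genes rose as much as Irf7, and Saa1 and Saa3 rose by 5.82 and 5.86 log2. For Irf8 they were Sh3d21 (0.0724) and Ccr7 (0.101), for Irf9 Zfp523 (0.0713) and Stat3 (0.0789), and for Irf1 Arl5a (0.0864) and Vti1a (0.0913). For Irf3 they were Rps6kb2 (0.0339) and Rhot1 (0.0373), for Irf2 Srek1ip1 (0.0387) and Ep300 (0.0461), for Irf5 Ppm1g (0.0525) and Ndufaf6 (0.0532), and for Irf4 Epb41l3 (0.0679) and Lhfpl4 (0.0879).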

How the data were processed

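RNA of 4 immature and 4 LPS-treated samples was hybridised to one-colour (Cy3) Agilent arrays. Per the submitters' processing notes and the file headers, Feature Extraction 11.0.1.1 (Agilent) quantified the scans, and the deposited processed signal is an intensity with background and spatial trend removed, not scaled between arrays. The deposited files also hold raw and background-subtracted intensities and other columns of 0 or 1 flags.

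Spots flagged as outliers (122 to 206 per array outside the controls) were left out, log2 signals of a probe's spots averaged, and each array's 75th percentile subtracted. Of 55681 probes 27509 matched 1 symbol by RefSeq accession. The probe with the highest mean represented a gene, and 12706 genes well above background on all 4 arrays of a group were tested with lmFit and eBayes (limma 3.58.1, R 4.3.3), two-sided, tested on simulated data. Bounds and motif searches are described with their results. The members, lists and tests were chosen with earlier results of these data known. Named are all members, from each list the 2 largest called changes in the commoner direction and the 1 largest in the other, and each member's 2 nearest genes; some genes that this rule names are not reported here. Alternatives were 4 scalings, normexp with an offset of 50, no filter, the mean of probes, a replicate block, replicates 1 and 2 averaged, and each array left out. The replicate numbers were not treated as pairs. Probe and protein sequences were not used here. Figures were drawn with matplotlib 3.10.9.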

Additional observations from a re-analysis of the deposited data

Results flagged for a closer look

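Among the 16 groups of 4 values (8 genes, 2 treatments), 1 sample lay far from the rest by Dixon's test at the 95% level, which chance passes in about 1 of 20 groups. It was Irf1 in immature replicate 3, at a log2 level of 4.87, while the nearest of the other 3 immature arrays was at 4.45. This is the array that also stood apart over all tested genes.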

How the results depend on the processing

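Irf7, Irf8, Irf9 and Irf1 rose and passed in all 17 other settings, so 4 members rose in each, and Irf1 came nearest to the threshold (limma adjusted p between 0.00109 and 0.0432). Members that fell numbered 2 (Irf2 and Irf5) with scaling to the array median or no scaling, and 1 (Irf5) with scaling to probes detected on all arrays, quantile normalization or normexp. Leaving out 1 array gave 0 to 1 falling members, the 1 being Irf5 without immature replicate 3. Probes of members that fell numbered 2 with no scaling. Signs turned for Irf3 with the array median (−0.086) and no scaling (−0.12) and for Irf4 when 1 array was left out (−0.20 to 0.0062, the latter without immature replicate 1), none of which passed. These 2 scalings moved the median of all genes by −0.17 and −0.21 log2, and genes that rose numbered 2615 and 2428 against 3988, with 56.0% of called genes rising in the main setting, 38.5% and 35.3%. The count was 7628 with no filter on dim probes, where more genes are tested. The Irf1 and Irf3 difference was 0.52 with the mean of probes and 0.77 with normexp, where its groups overlapped. In the lists, added after seeing the data, IRF4 and IRF8 targets that rose numbered 3 with both scalings, interferon genes and receptors 7 and falling partners 7 with no scaling, and IRF5 targets that fell numbered 1 without immature replicate 3. With the replicate block, same-numbered arrays shared only a number (correlations of deviations 0.19, 0.022, 0.051 and −0.10), with 2 of the 4 numbers closest to their own, the same 4 members rose and 0 fell, and 52.0% of genes were called against 56.1%. With replicates 1 and 2 averaged, which leaves fewer values per group, the same 4 members rose, 0 fell and 42.7% of genes were called. No cause of these shifts was tested. Precision is set by 4 arrays per group, with a median standard error of 0.12 log2.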
